A study of Homo sapiens with 23 samples.

Results

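Thalamus organoids (ThOs) made from unedited cells were compared between day 30 and day 25 of culture, using 4 RNA-seq libraries of the 12 in the series, chosen by their titles alone (2 libraries labelled WT at each day). ThOs are aggregates of human pluripotent cells guided towards thalamic tissue, and these came from H1, an established human embryonic stem cell line. Per the study's methods, embryoid bodies were neuralized with LDN-193189 and SB431542, which block BMP and TGF-beta receptors. They were then patterned with BMP7 and the MEK inhibitor PD325901, and grown in a neural differentiation medium with BDNF and ascorbic acid. No gene was edited and no doxycycline was given in the WT libraries. Per the labels, each library pooled 3 organoids, and it was made from total RNA with ribosomal RNA removed. The other 8 RNA-seq libraries, labelled KO (c-JUN targeted by CRISPR/Cas9) or OE (the knockout with doxycycline-induced c-JUN), contributed to the estimate of spread and are compared only where stated. JUN itself, the targeted gene, had values of 139 and 153 at day 25 and 128 and 162 at day 30 in the WT libraries. In the libraries labelled KO it had 353 and 196 and then 222 and 248, so its transcript was not lower there. The study reports loss of c-JUN protein in its KO lines by western blot. By RT-qPCR it reports no c-JUN mRNA in KO neural progenitors and cerebral organoids. The medium was renewed every other day up to day 25 and less often thereafter, so day of culture and feeding interval cannot be told apart. Nothing in the labels says that replicates came from separate differentiations, so the p-values measure the spread between these libraries, which may be technical.

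The thalamus is the part of the diencephalon that relays sensory signals to the cortex. Its neurons arise from radial glia, the dividing progenitors of the neural tube, which exit the cell cycle, switch on neuronal cytoskeleton and synaptic genes and extend axons. Wnt signals from the dorsal midline (the roof plate) pattern the caudal diencephalon, and the same midline gives rise to the choroid plexus, an epithelium that secretes cerebrospinal fluid.

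All 12 RNA-seq tables covered an identical set of 9497 genes, whose values ran from 11 to 9910 around a median of 106. The values are a normalized score, not a read count, and the depth behind them is unknown. Since no gene was below 11 in any library, a gene that switches on or off was not analysed here. High values fall on shared steps: 8 to 10 genes per WT library stood at exactly 9910, and the next step was 3456, which is 1.52 lower on the log2 scale. In such bulk values, fewer cells of a type and less RNA per cell cannot be told apart.

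The libraries of day 25 were not alike. Replicate 1 of day 25 had a Spearman correlation of 0.936 with its own replicate and 0.917 and 0.916 with the day 30 libraries, whereas replicate 2 of day 25 reached 0.950 and 0.944 with the day 30 libraries. Both day 30 libraries correlated at 0.959. In replicate 1 of day 25, 83 genes were at least 2-fold above all 3 other WT libraries and 83 genes at least 2-fold below them, against 2 to 16 genes above and 11 to 33 below for the other libraries. It held the highest value of the 4 WT libraries for 26 of 33 long intergenic non-coding genes (LINC symbols) and the lowest for 64 of 78 cytosolic ribosomal protein genes. Either list was picked with the values in view. The part of this library in each result was not tested, and the results are therefore given with it and without it. Without it, day 25 is represented by 1 library, which is assumed to vary like the other groups.

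The cell type the labels name was checked against its markers. Of 18 thalamus markers, 7 were listed: TCF7L2 (a transcription factor of thalamus and habenula) at 224 and 128 at day 25 and 148 and 246 at day 30, LHX9 at 200, 190, 309 and 330 in the same order, SLC17A6 (the vesicular glutamate transporter of thalamic relay neurons), KITLG, IRX2, IRX3 and NTNG1. The other thalamus markers of the list were not analysed here. Of 12 telencephalon markers 1 was listed (LMO3, 94 to 157), of 18 midbrain and hindbrain markers 3, and of 12 pluripotency markers 2 (DNMT3B and LIN28B, all values from 41 to 75). Markers of other tissues were present. Of 17 choroid plexus markers 14 were listed, with TTR between 922 and 3452, as were 24 of 28 genes of motile cilia and 13 of 16 of the roof plate. Of 18 mesenchyme and muscle markers 3 were listed (COL1A2, COL2A1 and PDGFRB, 84 to 217), and of 13 endothelium and microglia markers 2 (CLDN5 and PTPRC, 36 to 98).

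The most highly expressed genes of unedited ThOs were cytoskeletal, translational and non-coding. The values are not known to be scaled by transcript length, so the order describes the deposited score and not the number of transcripts. At 9910 in all 4 WT libraries stood 7 genes: MAP1B, a microtubule-associated protein of growing axons, the tubulins TUBA1A and TUBB, ACTB, the elongation factor EEF1A1, and the nuclear non-coding RNAs MALAT1 and RMST. Their order among themselves, and any change over the 5 days, cannot be read from a shared top step. Below them HSP90AA1, a chaperone, and EIF4G2, a translation initiation factor, had 3456 in every WT library. MAP2, a dendritic microtubule protein, had 2674 and 3456 at day 25 and 3456 in both day 30 libraries. CTNNB1, the transcriptional effector of Wnt signals, had 3449 in 3 libraries and 2670 in replicate 1 of day 30. Of the 30 highest genes, 6 encode tubulins or actins and 5 cytosolic ribosomal proteins (RPL13A, RPL15, RPL3, RPL7A and RPS3A), families whose near-identical copies can share reads. GAPDH stood at 2396 to 2398 in all libraries, and 18 of the 30 were among the 30 highest in each of the 4 libraries taken alone.

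**Figure D1:**
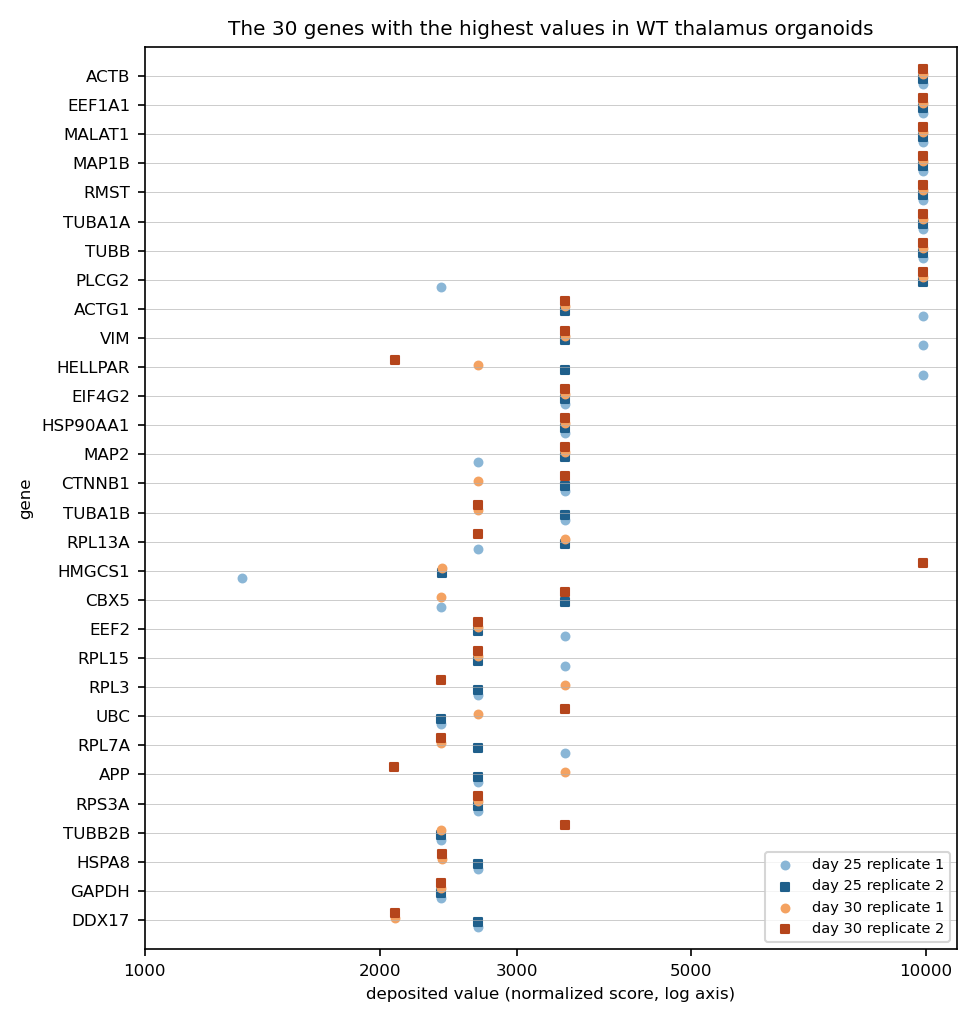
Values of the 30 genes with the highest mean log2(value + 1) over the 4 WT libraries (x axis, deposited score, log axis; y axis, genes), 1 point per library. The top 7 genes lie at 9910 in every library, while VIM, ACTG1, HELLPAR and PLCG2 are set apart by the light blue point of day 25 replicate 1.

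Among these 30 genes, 6 differed between the days at an unadjusted p under 0.05, and 4 of them no longer did without replicate 1 of day 25. VIM, the intermediate filament of radial glia, had 9910 in that library and 3452 in the other 3. The non-coding RNA HELLPAR had 9910 and 3456 at day 25 and 2674 and 2094 at day 30, and PLCG2, a phospholipase, had 2394 in that library and 9910 in the other 3. Without it the log2 changes of VIM and PLCG2 were 0.00 and that of HELLPAR was -0.55. RPL7A, a ribosomal protein gene, had 3452 and 2670 at day 25 and 2394 in both day 30 libraries, and its log2 change of -0.34 became -0.16. The alpha tubulin TUBA1B (3453 and 3454 at day 25, 2672 and 2672 at day 30) and the RNA helicase DDX17 (2670 and 2672, then 2090 and 2092) were lower in both day 30 libraries than in either day 25 library, with or without replicate 1 of day 25. HMGCS1, an enzyme of cholesterol synthesis, spread most, with 1332 and 2399 at day 25 and 2400 and 9910 at day 30 (adjusted p = 0.423, limma).

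Across all genes, no gene passed the adjusted threshold. With limma, 0 of 9497 genes (0%) differed by 2-fold or more with an adjusted p below 0.05, and the lowest adjusted p was 0.1195, for HELLS and KIFAP3. At an unadjusted p under 0.05 stood 1149 genes (12.1%), 618 higher at day 30 (6.51%) and 531 lower (5.59%). With the further demand of a 2-fold change, which is the threshold the study states, 73 genes were higher (0.769%) and 81 lower (0.853%). None of the differences described from here on passed the adjusted threshold, and the counts below are counts at an unadjusted p under 0.05. The values of the days did not overlap for 3927 genes (41.3%). An exact permutation test of 2 libraries against 2 cannot go below 0.333. Of the 154 genes with a 2-fold difference, 151 kept their direction without replicate 1 of day 25 and 82 kept both direction and p under 0.05. Without that library 312 genes were higher (3.29%) and 231 lower (2.43%) at an unadjusted p under 0.05, and with equal weights for all libraries 408 genes stood under this p (2.19% higher, 2.11% lower). The shares of all genes were 2.52% higher and 2.83% lower without replicate 1 of day 30, 2.34% and 2.11% without replicate 2 of day 30, and 8.23% and 6.58% without replicate 2 of day 25. If no gene differed, a share of about 0.05 of genes would be expected under this p, both directions together. The shares with equal weights, or with replicate 1 of day 25 or either day 30 library left out, lay near this level. Counts of list members under these settings are to be read against these shares. Leaving out replicate 2 of day 25 instead, so that replicate 1 alone stood for day 25, gave 55 genes called at the adjusted threshold (24 higher, 31 lower), of which 12 were also under an unadjusted p of 0.05, in the same direction, when replicate 1 was the one left out.

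**Figure D2:**
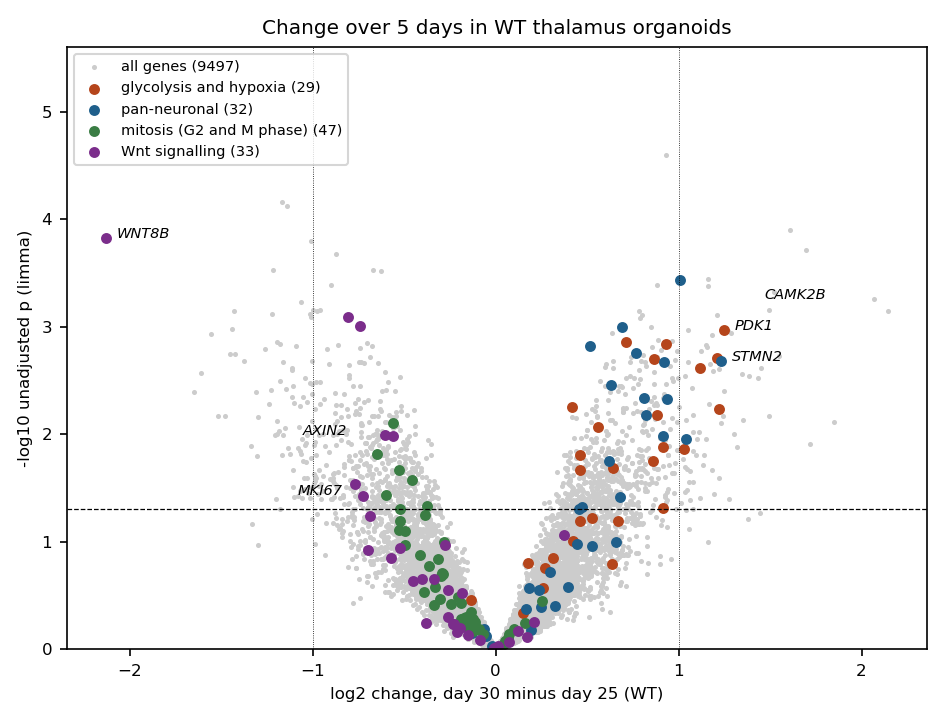
Log2 change from day 25 to day 30 in WT ThOs (x axis) against -log10 of the unadjusted limma p (y axis), 1 point per gene, with 4 gene lists in colour. Dashed line, p of 0.05, dotted lines, 2-fold. Coloured points of the glycolysis and hypoxia and the pan-neuronal lists lie mostly right of 0 (27 of 29 and 27 of 32 genes), those of the mitosis and Wnt lists mostly left (39 of 47 and 26 of 33).

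The 10 largest differences upwards were taken among genes with no overlap of day 25 and day 30 values. OGDHL, a brain form of oxoglutarate dehydrogenase, had 11 and 21 at day 25 and 76 and 66 at day 30 (log2 change 2.14 ± 0.48 SE, adjusted p = 0.224, limma). CAMK2B, the beta subunit of the synaptic kinase CaMKII, had 20 and 12 and then 65 and 72 (2.07 ± 0.45). GABBR2, a subunit of the GABA-B receptor, had 17 and 21 and then 54 and 66 (1.61 ± 0.29). For GNG3, a neuronal G protein subunit, the values were 19 and 51 at day 25 and 108 and 99 at day 30, so that replicate 1 of day 25 was the lowest and the log2 change of 1.69 became 1.01 without it. The others were ASS1, of arginine synthesis (50 and 48, then 211 and 152), FOLR1, the folate receptor of choroid plexus (34 and 42, then 182 and 88), COL9A3, a collagen (32 and 45, then 118 and 100), FTL, the ferritin light chain (194 and 462, then 1083 and 710), RPS28 (75 and 162, then 312 and 312) and the readthrough gene RPS10-NUDT3 (16 and 19, then 54 and 50). FTL, RPS28 and RPS10-NUDT3 share sequence with other genes or copies, so their values are uncertain. Of the 10, FOLR1, COL9A3 and FTL had an unadjusted p over 0.05 without replicate 1 of day 25 (0.0648, 0.0559 and 0.0508).

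The 10 largest differences downwards were led by WNT8B, a Wnt ligand of the dorsal midline, with 169 and 334 at day 25 and 44 and 65 at day 30. Its log2 change was -2.13 ± 0.40 (SE, adjusted p = 0.218, limma) and -2.62 without replicate 1 of day 25. COL4A5 had 572 and 496 and then 236 and 138 (-1.56 ± 0.37), and COL4A6 392 and 332 and then 152 and 115 (-1.44 ± 0.34). Both encode chains of basement membrane collagen. FAT4, a protocadherin that restrains growth of progenitors, had 500 and 357 and then 118 and 206 (-1.43 ± 0.32). LRP1B, a large lipoprotein receptor-related protein, had 1084 and 948 and then 446 and 306 (-1.45 ± 0.37). TST, a mitochondrial sulphur transferase, had 53 and 48 and then 16 and 18. The remaining members were CYP3A5 (134 and 42, then 30 and 18), NUTM2D (102 and 54, then 20 and 28), LINC02754 (104 and 38, then 22 and 22) and B3GALT5 (82 and 43, then 22 and 21). In all of the 10 genes but WNT8B, replicate 1 of day 25 held the highest value. Without it the log2 changes of CYP3A5 and LINC02754 went from -1.65 and -1.48 to -0.83 and -0.76. NUTM2D belongs to a family of near-identical copies, so its value is uncertain. HELLS, a chromatin remodeller of dividing cells that had the lowest adjusted p, was not among the 10 and is named after its values were seen: 162 and 121 at day 25, 54 and 52 at day 30 (-1.39).

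**Figure D3:**
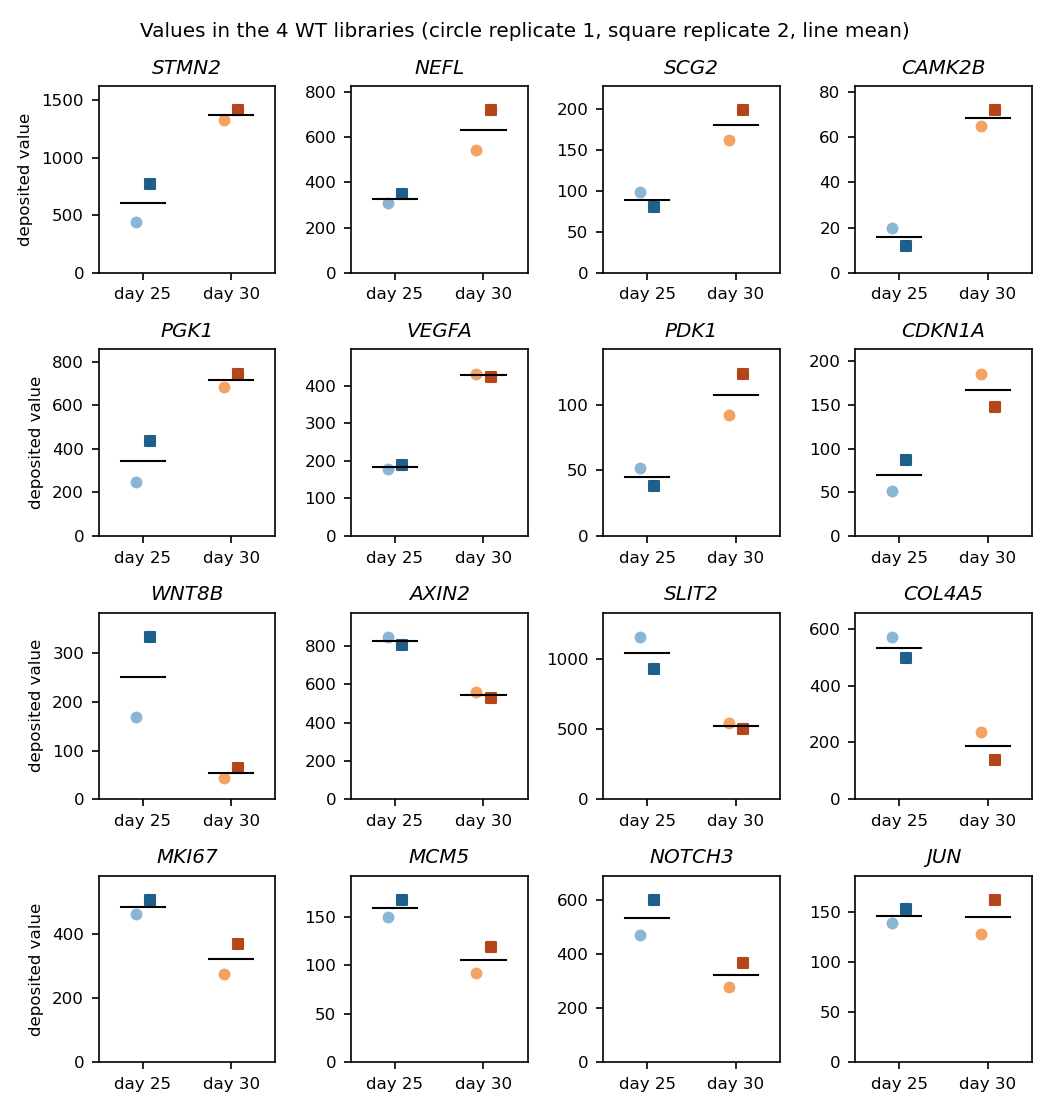
Deposited values (y axis, from 0) of 16 genes in the 4 WT libraries at day 25 and day 30 (x axis), circles replicate 1, squares replicate 2, lines the mean of 2. The first 2 rows are higher at day 30 without overlap, the rows from WNT8B to NOTCH3 lower without overlap, and JUN overlaps between the days.

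Of 32 pan-neuronal genes measured, 15 were higher at day 30 and 0 lower, where 6.51% and 5.59% of all genes were, and their median log2 change was 0.49 against 0.01 for all genes. STMN2, a microtubule regulator of growth cones, had 445 and 767 at day 25 and 1332 and 1412 at day 30 (1.23 ± 0.32 SE). The neurofilament genes NEFL (308 and 348, then 546 and 720) and NEFM (99 and 148, then 216 and 289) differed by 0.94 and 1.04. SCG2, a granin of dense-core vesicles, had 98 and 80 and then 162 and 198 (1.01 ± 0.21). Replicate 1 of day 25 held the lowest value for 20 of the 32 genes, against 3024 of all 9497 genes. STMN2, NEFL, NEFM and SCG2 were all higher in both day 30 libraries than in either day 25 library, as were 2054 of all 9497 genes. TUBB3, the tubulin used as a pan-neuronal stain, did not show this pattern, with 1604 and 1466 at day 25 and 1466 and 1466 at day 30, and DPYSL3 overlapped between the days. Without replicate 1 of day 25, 10 of the 32 were higher (3.29% of all genes) and the median was 0.45. Without replicate 2 of day 30, which held the highest value for 23 of the 32, 7 were higher.

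Of 40 synaptic genes measured, 8 were higher at day 30 and 0 lower, where 6.51% and 5.59% of all genes were. The list median was 0.20. RAB3A, a small GTPase of synaptic vesicles, had 58 and 89 at day 25 and 124 and 141 at day 30 (0.87 ± 0.27 SE), and its paralogue RAB3C 178 and 204 and then 359 and 308 (0.80 ± 0.29). SLC17A6 had 70 and 110 and then 148 and 142 (0.72 ± 0.33). Leaving out one WT library at a time gave 5 genes without replicate 1 of day 25 (3.29% of all genes were higher in that fit), 6 without replicate 2 of day 25 (8.23%), 3 without replicate 1 of day 30 (2.52%) and 2 without replicate 2 of day 30 (2.34%). Equal weights gave 3 (2.19%). Of the 14 neurogenic transcription factors measured, 0 were higher and 0 lower (limma, unadjusted p under 0.05), with a median of 0.21. Among thalamus markers, SLC17A6 and KITLG (24 and 37, then 54 and 61, 0.92 ± 0.26) were higher, TCF7L2 overlapped between the days (0.17 ± 0.57), and LHX9 was higher in both day 30 libraries with a wide error (0.71 ± 0.50). Without replicate 1 of day 25, 0 of the 7 thalamus markers were higher at this threshold.

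With all WT libraries in the fit, genes of glycolysis and the low-oxygen response had the largest share of higher members among the lists examined. Without replicate 1 of day 25, the pan-neuronal list had the larger share. Cells short of oxygen stabilize the transcription factor HIF-1, which activates glucose transporters, glycolytic enzymes and VEGFA through sites with the core ACGTG. Of 29 genes measured, 17 were higher at day 30 and 0 lower, where 6.51% and 5.59% of all genes were. The median log2 change of the list was 0.63. PDK1, which diverts pyruvate from mitochondria, had 52 and 38 at day 25 and 92 and 124 at day 30 (1.25 ± 0.29 SE, adjusted p = 0.224, limma). VEGFA, the angiogenic growth factor, had 178 and 188 and then 432 and 424 (1.22 ± 0.37). HK2, an inducible hexokinase, had 136 and 256 and then 438 and 428 (1.21 ± 0.31), and PGK1, a glycolytic kinase, 248 and 437 and then 686 and 746 (1.12 ± 0.30). ENO1 was at 1043 and 1328 and then at 1737 in both libraries. The abundant enzymes GAPDH and PKM did not follow, at 2396 to 2398 and 1743 to 2094 in the 4 libraries. Replicate 1 of day 25 held the lowest value for 22 of the 29 genes, against 3024 of all 9497 genes. Without it VEGFA and PDK1 had log2 changes of 1.18 and 1.47, and HK2 and PGK1 of 0.76 and 0.71. The count of higher members was 8 without that library, 10 without either day 30 library and 9 with equal library weights, and the median without that library was 0.55.

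Promoter sequence was examined for these genes because most of them were higher together. RefSeq windows of 250 bases before to 50 after the start (GRCh38.p14) were found for 25 of the 29 genes, in 49 windows. The letters ACGTG, searched on both strands, so that CACGT also counts and the palindrome CACGTG counts as 2 overlapping matches, occurred in 20 of the 49 windows (40.8%). Among the 15 higher genes with a window they occurred in 14 of 23 windows (60.9%), among the other 10 genes in 6 of 26 (23.1%). In all windows of the genes tested the share was 25.3% and in every RefSeq window, tested or not, 21.4%. A match is a string in this window and not a measured binding site. The list was made of genes of the response to low oxygen, so its share against all genes is no test. Higher and other genes were split by the same values, and a gene with several windows counts more than once. Whether these strings have a part in the day difference was not tested. Of the 23 windows of higher genes, 7 had 2 or more matches, and those printed were chosen from these. ENO1 had no such window. The chosen windows of 3 named genes are printed 5′ to 3′ in lower case, with ACGTG or CACGT in capitals. They are PGK1 (chrX:78103998-78104297, plus strand), PDK1 (chr2:172555840-172556139, plus strand) and, for HK2, the window with most matches (chr2:74834920-74835219, plus strand).
PGK1: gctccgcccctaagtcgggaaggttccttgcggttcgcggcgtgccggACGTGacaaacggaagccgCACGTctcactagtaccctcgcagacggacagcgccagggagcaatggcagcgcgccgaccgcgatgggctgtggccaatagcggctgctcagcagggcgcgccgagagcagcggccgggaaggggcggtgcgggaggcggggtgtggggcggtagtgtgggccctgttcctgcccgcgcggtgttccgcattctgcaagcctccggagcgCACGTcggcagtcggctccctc
PDK1: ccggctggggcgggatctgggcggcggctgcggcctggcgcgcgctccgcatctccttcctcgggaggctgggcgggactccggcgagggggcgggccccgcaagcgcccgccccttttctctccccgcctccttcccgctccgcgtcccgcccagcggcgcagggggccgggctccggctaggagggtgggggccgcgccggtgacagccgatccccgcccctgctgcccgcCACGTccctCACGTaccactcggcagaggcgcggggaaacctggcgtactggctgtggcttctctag
HK2: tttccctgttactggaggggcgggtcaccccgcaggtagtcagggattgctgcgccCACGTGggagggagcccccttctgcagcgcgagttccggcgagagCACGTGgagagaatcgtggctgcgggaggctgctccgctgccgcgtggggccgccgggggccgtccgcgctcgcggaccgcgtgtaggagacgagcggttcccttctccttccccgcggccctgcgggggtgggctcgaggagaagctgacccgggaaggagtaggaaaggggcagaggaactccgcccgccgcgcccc
The PDK1 matches lie close together shortly before the start, while those of PGK1 lie at both ends of the window. VEGFA had no entry.

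Among genes of dividing cells, those that passed were lower at day 30. Of 35 DNA replication genes, 8 were lower and 0 higher (5.59% of all genes were lower), with a median log2 change of -0.22. POLA1, a subunit of the polymerase that primes replication, had 118 and 101 at day 25 and 64 and 70 at day 30 (-0.70 ± 0.20 SE), and MCM5, of the replicative helicase, 150 and 167 and then 92 and 119 (-0.59 ± 0.22). For both genes the days did not overlap. Of 47 mitosis genes, 7 were lower and 0 higher, with a median of -0.24. CDCA8, of the chromosomal passenger complex, had 71 and 98 and then 46 and 61 (-0.65 ± 0.23), and CDC20, an activator of the anaphase-promoting complex, 138 and 140 and then 98 and 90 (-0.56 ± 0.18). MKI67, the proliferation marker, had 461 and 504 and then 274 and 368 (-0.60 ± 0.26). These 3 genes were also lower in both day 30 libraries than in either day 25 library, as were 1873 of all 9497 genes. The cyclin-dependent kinase inhibitor CDKN1A (p21), which halts the cycle, had 52 and 87 and then 186 and 148 (1.29 ± 0.31). Without replicate 1 of day 25, 44 of 47 mitosis genes were below their day 25 value and 4 passed (2.43% of all genes were lower), with a median of -0.31, and 5 of 35 replication genes passed. Replicate 1 of day 30 had the lower median of both day 30 libraries on both lists: without it 1 replication gene and 2 mitosis genes passed, and with equal library weights 2 and 2. Without replicate 2 of day 25, neither list had a count above the share of all genes lower in that fit. The replication count without replicate 1 of day 30 was near the share of that fit. Without replicate 2 of day 30, the counts of both lists were above the share of that fit.

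Of 24 markers of radial glia measured, 4 were lower and 2 higher, where 5.59% and 6.51% of all genes were. The list median was -0.16. NOTCH2, a receptor that keeps progenitors undifferentiated, had 1008 and 763 at day 25 and 530 and 499 at day 30 (-0.77 ± 0.27 SE), ASPM, of the mitotic spindle, 362 and 280 and then 187 and 262 (-0.52 ± 0.24), and CDH2, a cadherin of adherens junctions, 1468 and 2094 and then 1260 and 1260 (-0.48 ± 0.18). VIM was the fourth, through replicate 1 of day 25. PTN, a growth factor (135 and 340, then 506 and 383), and ID4, an inhibitor of neurogenic factors (170 and 229, then 312 and 278), were the higher members. NES, the progenitor intermediate filament, overlapped between the days (1260 and 1330, then 1082 and 1330). Without replicate 1 of day 25, 2 were lower and 0 higher, and without either day 30 library 1 was lower and 0 higher. In the Notch pathway 3 of 15 genes were lower and 0 higher: NOTCH2, NOTCH3 (471 and 600, then 278 and 367) and the co-activator MAML1 (176 and 198, then 126 and 156), and 1 was lower without replicate 1 of day 25, 1 without replicate 2 of day 25 and 0 without replicate 1 of day 30.

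**Figure D4:**
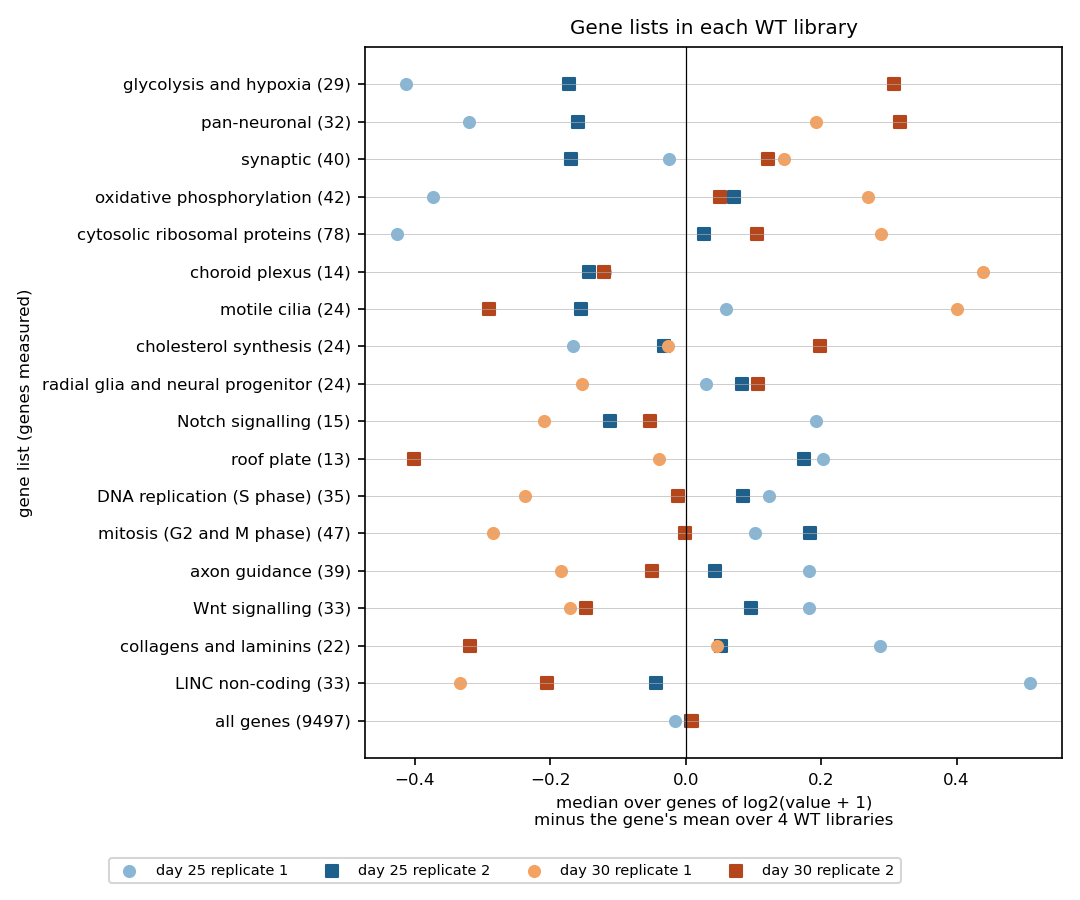
Median over the genes of each list (y axis, number measured in brackets) of the log2 value minus the gene's mean over the 4 WT libraries (x axis), 1 point per library. Both day 25 points lie left of both day 30 points for glycolysis and hypoxia, pan-neuronal and synaptic genes, and right of them for Wnt, axon guidance, mitosis and replication genes, while for ribosomal, oxidative phosphorylation and LINC genes day 25 replicate 1 lies far from the other 3.

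Of 33 Wnt pathway genes measured, 7 were lower at day 30 and 0 higher, where 5.59% and 6.51% of all genes were. The median log2 change of the list was -0.26. Beside WNT8B, the secreted Wnt enhancer RSPO1 had 160 and 144 at day 25 and 93 and 88 at day 30 (-0.74 ± 0.17 SE, adjusted p = 0.224, limma). Of the receptors, FZD3 had 3456 and 2674 and then 1608 and 1882 (-0.80 ± 0.18), and FZD4 70 and 52 and then 36 and 34 (-0.77 ± 0.31). AXIN2, a feedback inhibitor and general target of the pathway, had 849 and 806 and then 562 and 527 (-0.60 ± 0.20). In these 5 genes both day 30 libraries were below both day 25 libraries, as in 1873 of all 9497 genes. All 5 passed at an unadjusted p under 0.05, which favours this pattern. CTNNB1, the effector, had a log2 change of -0.18 ± 0.17. The count was 6 without replicate 1 of day 25 and 4 without either day 30 library.

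Of 13 roof plate markers, 2 were lower (WNT8B and RSPO1) and 0 higher, and both genes kept an unadjusted p under 0.05 when any one WT library was left out. None of the other 11 passed, although 11 of the 13 log2 changes were negative, with a median of -0.20. GDF7, a BMP family ligand of the roof plate, had 542 and 411 at day 25 and 358 and 158 at day 30 (-0.99 ± 0.56 SE), MSX1 169 and 132 and then 200 and 112, and ZIC1 1412 and 1743 and then 1412 and 1604. In the BMP and TGF-beta pathway 1 of 21 genes was higher (ID4) and 2 were lower, SMAD3 (300 and 246, then 197 and 162) and the receptor ACVR2B (571 and 528, then 436 and 418), with a median of -0.05. Of all genes, 6.51% were higher and 5.59% lower. Without replicate 1 of day 25 the log2 changes of ID4, SMAD3 and ACVR2B went from 0.58, -0.60 and -0.36 to 0.36, -0.46 and -0.31.

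Of 39 axon guidance genes measured, 7 were lower at day 30 and 0 higher, where 5.59% and 6.51% of all genes were. The list median was -0.25. SLIT2, a secreted repellent of axons, had 1159 and 926 at day 25 and 547 and 501 at day 30 (-0.98 ± 0.27 SE), and SLIT3 136 and 188 and then 94 and 89 (-0.80 ± 0.29). SEMA6A, a transmembrane semaphorin, had 536 and 540 and then 349 and 326 (-0.67 ± 0.14, adjusted p = 0.224, limma), with close replicates at both days. NRP1, a semaphorin co-receptor, had 100 and 80 and then 45 and 68 (-0.68 ± 0.31). The highest members, EPHA7 and SEMA3C, had log2 changes of -0.64 ± 0.38 and 0.52 ± 0.50. The count was 4 without replicate 1 of day 25, 2 without replicate 1 of day 30, 4 without replicate 2 of day 30 and 3 with equal weights.

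Basement membrane genes were examined after COL4A5 and COL4A6 had been seen. Of 22 collagen and laminin genes listed, 5 were lower (COL4A5, COL4A6, LAMA1, LAMB2 and COL18A1), 1 was higher (COL9A3), and the median was -0.34. Of all genes, 5.59% were lower and 6.51% higher. LAMA1, the laminin chain of early basement membranes, had 408 and 349 at day 25 and 178 and 200 at day 30 (-0.996 ± 0.223 SE). HSPG2 (perlecan), another basement membrane component, had 467 and 285 and then 176 and 156 (-1.13 ± 0.39), and its p was 0.139 without replicate 1 of day 25, without which 3 of the 22 were lower. Without replicate 2 of day 30, 3 were lower too. COL4A5 and COL4A6 lie head to head on chromosome X, and their RefSeq starts are 380 bases apart in the table. Their windows (chrX:108439588-108439887, plus strand, and chrX:108439409-108439708, minus strand) overlap, and the 121 shared bases are in capitals, each printed 5′ to 3′ on its own strand.
COL4A5: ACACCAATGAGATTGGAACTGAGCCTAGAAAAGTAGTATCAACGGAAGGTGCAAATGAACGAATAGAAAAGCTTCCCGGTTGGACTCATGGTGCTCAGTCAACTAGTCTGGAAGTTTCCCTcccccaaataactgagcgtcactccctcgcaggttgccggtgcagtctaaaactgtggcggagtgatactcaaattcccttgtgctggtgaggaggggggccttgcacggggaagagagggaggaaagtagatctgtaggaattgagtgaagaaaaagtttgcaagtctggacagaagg
COL4A6: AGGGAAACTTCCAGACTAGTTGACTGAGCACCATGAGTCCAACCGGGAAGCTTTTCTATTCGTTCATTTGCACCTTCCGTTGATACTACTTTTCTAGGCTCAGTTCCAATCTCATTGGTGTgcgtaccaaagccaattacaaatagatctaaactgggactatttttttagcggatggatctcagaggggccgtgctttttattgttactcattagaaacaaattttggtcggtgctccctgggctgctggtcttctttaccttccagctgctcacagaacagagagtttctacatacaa
The capitals of one window are the reverse complement of those of the other. For both genes each day 30 library was below each day 25 library, as the rule that named them required.

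For choroid plexus genes the day 30 libraries stood apart from each other. Replicate 1 of day 30 held the highest value for 11 of the 14 choroid plexus genes and replicate 2 for 0. TTR, the thyroxine carrier secreted by choroid plexus, had 922 and 1878 at day 25 and 3452 and 1739 at day 30 (0.90 ± 0.60 SE), FOLR1 182 and 88 at day 30, and FOXJ1, the regulator of motile cilia, 270 and 330 and then 403 and 303. Of the 14 genes 2 were higher (FOLR1 and KRT18) and 1 lower (TRPM3, 3456 in replicate 1 of day 25 and 823 to 1332 in the others), and without replicate 1 of day 25 or replicate 1 of day 30 these counts were 0 and 0. Of 24 cilia genes 0 were higher and 1 lower (CFAP54, 162 and 106, then 93 and 58). Of all genes, 6.51% were higher and 5.59% lower. The pan-neuronal genes had the opposite bias at day 30, with the highest value in replicate 2 for 23 of 32 and in replicate 1 for 4 of 32.

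The counts for the translation machinery and the respiratory chain changed with the libraries in the fit. In this paragraph, that library is replicate 1 of day 25, which held the lowest value for 64 of 78 cytosolic ribosomal protein genes. Of the 78 genes, 27 were higher and 1 lower, where 6.51% and 5.59% of all genes were. The list median was 0.40. Without that library 2 were higher and the median was 0.13, and without replicate 1 of day 30, which held the highest value for 56, 3 were higher. The count was 13 without replicate 2 of day 30, 47 without replicate 2 of day 25 and 9 with equal weights. Of 42 oxidative phosphorylation genes 6 were higher and 0 lower, with a median of 0.31, and without that library 0 were higher and the median was 0.12. The count was 0 without replicate 1 of day 30 and with equal weights, 2 without replicate 2 of day 30 and 18 without replicate 2 of day 25. COX7A2, a subunit of cytochrome oxidase, shows the pattern, with 40 and 96 at day 25 and 123 and 118 at day 30. Of 33 LINC genes 9 were lower and 1 higher, with a median of -0.59, and 1 was lower without that library, with a median of -0.15. The count lower was 15 without replicate 2 of day 25, 5 without replicate 1 of day 30 and 4 without replicate 2 of day 30.

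The list of genes that the study itself examined was chosen partly from these libraries, so it is not independent evidence of a direction. Of 19 measured, 5 were lower and 0 higher: WNT8B, PLAGL1, an imprinted zinc finger gene (310 and 254, then 117 and 136, -1.15 ± 0.32 SE), HSPG2, SEMA6A and TJP1, of tight junctions (401 and 368, then 303 and 276, -0.41 ± 0.15). Of all genes, 5.59% were lower and 6.51% higher. RSPO2 (436 and 580, then 328 and 455), CNTN2 (789 and 877, then 628 and 924), DCC (564 and 609, then 354 and 476), CYP1B1 (578 and 394, then 709 and 232) and MXRA5 (324 and 148, then 211 and 180) did not pass, with log2 changes from -0.51 to -0.13. LMX1B (134 and 112, then 160 and 76), NQO1 (74 and 78, then 115 and 83) and JUN (-0.02 ± 0.26) also did not pass. The count was 3 without replicate 1 of day 25 or either day 30 library, and 2 with equal weights.

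The same 5 days were followed in the libraries labelled OE and KO, which are separate from the WT libraries, and the difference of the day effects was tested gene by gene. With limma, the day effect of 0 of 9497 genes (0%) differed between OE and WT below an adjusted p of 0.05, and of 0 (0%) between KO and WT, with 287 and 278 genes at an unadjusted p under 0.05. The KO replicates were much less alike than the WT ones, with Spearman correlations of 0.821 and 0.769 within day 25 and day 30, against 0.958 and 0.947 in OE. Of the 73 genes higher in WT by 2-fold, 61 were also higher at day 30 in OE, where 50.3% of all genes were, and 21 of them at an unadjusted p under 0.05, where 4.02% of all genes were. Of the 81 genes lower in WT, 76 were lower in OE (49.7% of all genes) and 34 at an unadjusted p under 0.05 (4.59%). The median log2 changes of these genes in OE were 0.53 and -0.55. All genotypes shared an estimate of spread per gene, so the counts that passed in OE or KO are not independent of the WT choice. In KO, 57 of 73 and 54 of 81 had the WT direction, where 51.7% of all genes were higher and 48.2% lower. Their medians were 0.32 and -0.37. At an unadjusted p under 0.05, 3 and 6 passed in KO, where 1.68% of all genes were higher and 1.21% lower.

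Values of single genes are set side by side, with no difference between genotypes passing. WNT8B had log2 changes of -2.13 in WT, -1.34 ± 0.36 (SE) in OE and -1.03 in KO, COL4A6 -1.44, -0.97 and -1.52, and SLIT3 -0.80, -1.10 and -1.12. SEMA6A had -0.67 in WT and 0.70 in KO and the lowest p of the KO against WT difference, which did not pass (adjusted p = 0.9991, limma). The glycolysis and hypoxia list had medians of 0.63 in WT, 0.42 in KO (6 of 29 higher) and 0.18 in OE (2 of 29). PDK1, for example, differed by 1.25 in WT, 2.06 in KO and 0.22 in OE, and VEGFA by 1.22, 0.89 and -0.08. The pan-neuronal list had medians of 0.49 in WT, 0.11 in OE (7 of 32 higher) and 0.00 in KO, and the mitosis list -0.24 in WT, 0.00 in OE and 0.11 in KO. Choroid plexus genes had a median of 0.73 in OE (7 of 14 higher), 0.29 in WT and -0.42 in KO. Of all genes, 4.02% were higher in OE and 1.68% in KO at an unadjusted p under 0.05. The list medians are descriptions, and no difference between genotypes was tested at the level of lists.

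**Figure D5:**
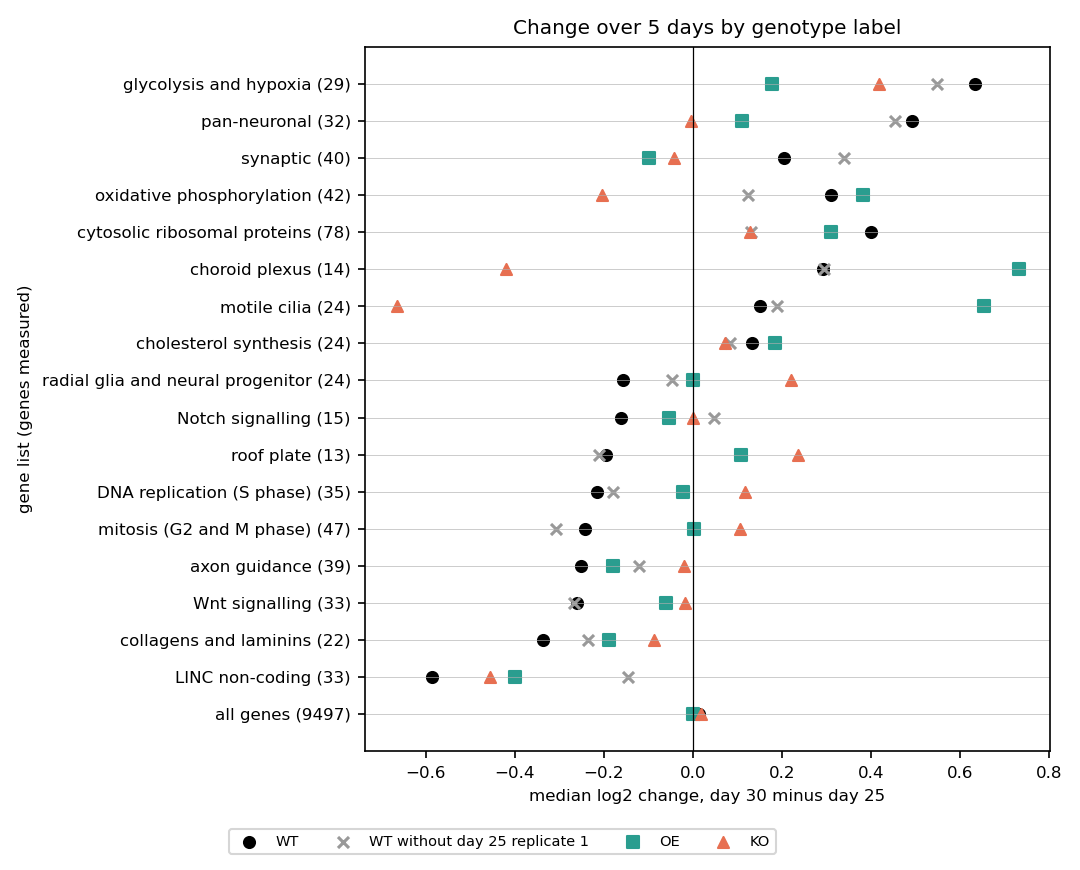
Median log2 change from day 25 to day 30 (x axis) for each gene list (y axis, number measured in brackets) in WT, in WT without day 25 replicate 1, in OE and in KO libraries. The WT points with and without that library lie close together for pan-neuronal, Wnt and glycolysis genes and apart for ribosomal and LINC genes, and the OE and KO points lie nearer 0 than WT for the pan-neuronal list.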

How the data were processed

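For every RNA-seq library the authors deposited a table of gene scores, normalized and written as whole numbers. Per the labels, reads were processed with bcl2fastq, Bowtie2 and RSEM. How the scores were normalized is not given in the sources used here, and neither are tool versions. The submitters' notes name hg19, but the positions of all 9386 genes whose symbols RefSeq (GRCh38.p14) holds overlapped those of RefSeq, so positions are given as GRCh38. Minimum, median, 99th percentile (1408) and maximum were identical in all 12 libraries, and the sums lay between 1788282 and 1798596. The scores are not counts, so no count model was run, and depth and counting intervals are unknown. No 2 tables were identical.

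The log2(value + 1) scale was used throughout, and limma (version 3.58.1, R version 4.3.3) fitted 6 genotype-by-day group means to 12 libraries (6 residual and 6.46 prior degrees of freedom), with 1 variance weight per group and a mean trend. P-values are two-sided, and adjusted p-values are Benjamini-Hochberg over all 9497 genes. A value of at least 1 in 2 libraries was required, which removed 0 genes. Calls needed a 2-fold change together with an adjusted p below 0.05. Fold changes on this scale understate the change of low genes. SE is the moderated standard error, with n = 2 libraries per group. The fit was tested on simulated data.

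Genes named are the 10 largest differences per direction without overlap (here filled from unadjusted p under 0.05, since none passed), up to 4 members per direction and 3 highest members of each list, the 30 highest genes and the study's own genes. The genes and lists were chosen with earlier results of these data known. Ribosomal, collagen and laminin, and LINC lists were chosen after the values were seen. Alternatives were other weights, library subsets, the replicate number as a block, pseudocounts of 0.1 and 5, median centring, quantile normalization, no mean trend, a minimum mean value of 50, no filter and each library left out. Their effect on gene lists was added after the data were seen. ATAC-seq and CUT&Tag samples were not analysed here.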

Additional observations from a re-analysis of the deposited data

How the results depend on the processing

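No alternative turned the direction of a named gene that passed the unadjusted threshold. The 154 genes with a 2-fold difference and an unadjusted p below 0.05 became 100 with a mean value of at least 50 (45 higher), a setting that tests fewer genes. With single libraries omitted there were 126 to 424 such genes, 75 to 226 higher and 51 to 198 lower, and 0 to 55 genes at the adjusted threshold, the highest values without WT day 25 replicate 2. The same omissions gave 0 to 122 genes for the difference between KO and WT (122 without KO day 30 replicate 1) and 0 to 2 for that between OE and WT. The cause was not tested. In all settings but the omission of WT day 25 replicate 2, 0 genes passed the adjusted threshold, with 408 (equal weights) to 1218 genes at an unadjusted p under 0.05. Equal weights left 41 of the 92 named genes that passed without an unadjusted p under 0.05, and the omission of WT day 25 replicate 1 left 48.

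With the replicate number as a block (replicate block), 0 genes passed the adjusted threshold and 157 the unadjusted 2-fold one, 75 higher and 82 lower, and 0 genes differed in either genotype difference. Deviations of same-numbered WT libraries correlated at -0.04, where all 15 pairs of groups ranged from -0.21 to 0.26. Whether the numbers pair samples cannot be settled from this value. Dividing the highest values by coding length was not run, since no coding lengths were at hand, and count models were not run because the values are not counts. Arrangement on shared steps limits differences among the highest genes, and the unknown depth limits those among the lowest.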

Other observations

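Several gene groups beside those of the comparison are given as values, at the same unadjusted threshold (6.51% of all genes higher, 5.59% lower). All 24 genes of the cholesterol synthesis list were measured, and 3 were higher at day 30: IDI1 (139 and 188, then 282 and 247), INSIG1 (145 and 159, then 220 and 262) and SC5D (132 and 123, then 195 and 178), with a median log2 change of 0.13 and 1 gene without WT day 25 replicate 1. Of 23 ion channel genes 2 were higher, the calcium channel CACNA1B (50 and 40, then 64 and 124) and the sodium channel SCN3A (162 and 140, then 188 and 226), and 1 was lower, the sodium channel SCN8A (70 and 61, then 36 and 32), with a median of 0.01. Of 18 genes of the p53 and apoptosis list, CDKN1A and BID (22 and 14, then 28 and 46) were higher and BCL2 (246 and 154, then 135 and 126) lower, with a median of 0.05. In the list of ER stress and the amino acid response SESN2 (28 and 36, then 60 and 52) was higher and HYOU1 (608 and 547, then 438 and 406) lower among 20 genes. Without WT day 25 replicate 1 the log2 changes of SESN2 and HYOU1 went from 0.80 and -0.45 to 0.62 and -0.37.

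Of 9 AP-1 and immediate early genes, 1 was lower, MAF (361 and 394, then 281 and 240), while JUND (202 and 187, then 232 and 226) and ATF2 (274 and 282, then 361 and 386) had log2 changes of 0.24 and 0.42 that did not pass. Among 6 other diencephalic markers, BARHL1, of the caudal diencephalon, was higher (102 and 62, then 118 and 129) and WNT8B lower. The dopaminergic factor NR4A2 (70 and 68, then 34 and 37), the only one of 3 midbrain and hindbrain markers to pass, and DNMT3B, a DNA methyltransferase of pluripotent and early neural cells (75 and 74, then 48 and 42), were lower. APOE, an apolipoprotein of astrocytes, had 82 and 72 and then 194 and 114 (0.94 ± 0.39 SE), and was the only one of 6 astrocyte and oligodendrocyte markers to pass.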
